A study of Homo sapiens with 12 samples.

Results

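The nuclear genes of oxidative phosphorylation were examined in 12 libraries of messenger RNA, 3 from each of 4 groups of K562 cells. These genes were taken by symbol, as every row of the count table that names a subunit or assembly factor of complex I (NDUFA, NDUFB, NDUFC, NDUFS and NDUFV), complex II (SDHA to SDHD), complex III (UQCR), complex IV (COX4 to COX8) or complex V (ATP5). The rule found 98 of the 19447 symbols, with 46 in complex I, 4 in complex II, 9 in complex III, 19 in complex IV and 20 in complex V. K562 is a human chronic myeloid leukemia line that carries the BCR-ABL fusion, and K562/IM is the line made resistant to imatinib (IM) by exposure to rising drug. The groups were untreated K562, K562 treated with lycorine (K562+L), K562/IM without lycorine, and K562/IM treated with lycorine (K562/IM+L). Lycorine, an alkaloid of Amaryllidaceae plants, was given at 6 µM, and how long the cells were exposed is not stated in the sources used here. Each line is a single line and its 3 libraries are replicates of that line only. Nothing says whether they came from separate cultures, so that p-values measure only the spread between these libraries. The paper describes K562/IM as grown in medium that held imatinib, and whether the drug was present at harvest is not stated. Exposure to imatinib and the line itself therefore cannot be told apart.

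Oxidative phosphorylation makes ATP in the inner mitochondrial membrane. Complexes I and II pass electrons from NADH and succinate to ubiquinone, complex III passes them on to cytochrome c, and complex IV hands them to oxygen. Complexes I, III and IV pump protons, and complex V, the ATP synthase, uses their return flow to make ATP. Most subunits are encoded in the nucleus, while a core set of complexes I, III, IV and V is encoded by mitochondrial DNA. No symbol of a mitochondrially encoded gene was among the 19447, so that 0 of 13 such subunits could be followed here and the values below cover the nuclear side of these complexes only.

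Many nuclear respiratory genes share binding sequences for the factors NRF1, GABPA (of the ETS family) and YY1 near their start sites. Promoters of 79 members, running from 250 bases before to 50 bases after the start in RefSeq (GRCh38.p14), were searched on both strands for these motifs. The NRF1 motif, GCGCA and GCGC with any 1 base between them, was present in 22.8% of them against 8.58% of 15843 promoters of coding genes, the ETS motif CCGGAAG in 26.6% against 14.2%, and the YY1 motif AANATGGCG in 20.3% against 4.81%. At least 1 of the 3 was found in 54.4% of the members and in 24.2% of all coding promoters. The CCAAT motif of NF-Y, searched the same way, was in 35.4% and 36.4%. A match is a description of letters and does not show that a factor binds. COX6A1, NDUFS1 and SDHB were taken from the fixed landmark genes for having the most kinds of motif, with ties settled by name. SDHA was the first landmark by name with an NRF1 match, and COX4I1 and NDUFAF4 were added by choice. The 6 promoters below carry these motifs in capitals. They comprise a subunit of complex IV with an ETS and a YY1 match (COX6A1, chr12:120437863-120438162, plus strand), a core subunit of complex I (NDUFS1, chr2:206159395-206159694, minus strand), and a pair from complex II, SDHB (chr1:17053983-17054282, minus strand) and SDHA (chr5:218070-218369, plus strand), of which the second holds 4 NRF1 matches. The promoters of COX4I1 (chr16:85799445-85799744, plus strand) and of the assembly factor NDUFAF4 (chr6:96897842-96898141, minus strand) each hold 1 ETS match.
COX6A1: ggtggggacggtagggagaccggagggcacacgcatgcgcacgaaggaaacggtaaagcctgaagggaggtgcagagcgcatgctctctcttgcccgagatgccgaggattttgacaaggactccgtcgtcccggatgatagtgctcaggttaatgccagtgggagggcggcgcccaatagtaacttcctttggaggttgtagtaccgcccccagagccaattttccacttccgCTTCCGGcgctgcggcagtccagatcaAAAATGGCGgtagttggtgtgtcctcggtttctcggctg
NDUFS1: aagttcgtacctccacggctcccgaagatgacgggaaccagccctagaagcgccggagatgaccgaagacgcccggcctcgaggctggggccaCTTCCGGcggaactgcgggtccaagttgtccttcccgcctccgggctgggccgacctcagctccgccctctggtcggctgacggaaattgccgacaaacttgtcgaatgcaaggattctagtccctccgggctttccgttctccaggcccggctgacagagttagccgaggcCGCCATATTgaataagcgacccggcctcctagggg
SDHB: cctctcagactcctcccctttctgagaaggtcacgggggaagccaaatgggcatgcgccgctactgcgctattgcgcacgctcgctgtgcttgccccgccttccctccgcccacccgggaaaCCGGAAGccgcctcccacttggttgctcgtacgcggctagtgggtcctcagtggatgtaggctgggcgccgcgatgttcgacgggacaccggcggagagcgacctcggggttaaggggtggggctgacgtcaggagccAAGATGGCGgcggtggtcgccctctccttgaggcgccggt
SDHA: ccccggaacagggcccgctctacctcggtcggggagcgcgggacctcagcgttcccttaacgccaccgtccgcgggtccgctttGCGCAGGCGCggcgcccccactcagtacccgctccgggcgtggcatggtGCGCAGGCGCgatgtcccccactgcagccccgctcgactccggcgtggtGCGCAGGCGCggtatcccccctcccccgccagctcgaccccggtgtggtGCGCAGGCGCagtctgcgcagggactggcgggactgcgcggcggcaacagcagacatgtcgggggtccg
COX4I1: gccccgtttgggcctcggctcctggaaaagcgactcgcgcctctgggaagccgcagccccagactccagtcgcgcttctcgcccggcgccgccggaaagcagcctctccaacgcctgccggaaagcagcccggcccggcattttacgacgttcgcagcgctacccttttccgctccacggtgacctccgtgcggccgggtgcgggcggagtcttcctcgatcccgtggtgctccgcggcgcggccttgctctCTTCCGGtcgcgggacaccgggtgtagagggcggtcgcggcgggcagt
NDUFAF4: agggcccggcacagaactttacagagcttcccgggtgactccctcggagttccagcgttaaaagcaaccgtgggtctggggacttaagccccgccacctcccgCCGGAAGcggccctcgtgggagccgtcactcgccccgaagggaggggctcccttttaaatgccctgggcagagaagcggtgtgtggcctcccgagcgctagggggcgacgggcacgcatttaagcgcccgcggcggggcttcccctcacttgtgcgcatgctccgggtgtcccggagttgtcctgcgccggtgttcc
Counted from 1 at the first printed base, the ETS match stands at position 235 in COX6A1, 94 in NDUFS1, 123 in SDHB, 253 in COX4I1 and 104 in NDUFAF4. The YY1 match begins at position 262 in COX6A1, 266 in NDUFS1 and 261 in SDHB, so that all 3 lie downstream of the start. In SDHA the NRF1 matches begin at positions 85, 134, 183 and 232. Members with any of the 3 motifs and members with none moved by like amounts. Their median log2 fold changes were -0.45 (42 tested) and -0.56 (34 tested) in K562+L against K562, and -0.70 in both sets in K562/IM against K562.

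Total counts per library ran from 75093844 to 107344598. Levels are given in CPM (counts relative to the library total after TMM normalization by edgeR), and because these are relative to all other RNA, fewer cells of a type and less RNA per cell cannot be told apart. Of 10 markers of K562 cells, all were over 1 CPM in each group, and their summed level was 6264 to 8661 CPM in K562, 4219 to 4841 in K562+L, 2856 to 3103 in K562/IM and 32639 to 45834 in the labelled K562/IM+L libraries, led by the fetal globin gene HBG2. The sums of T cell and of B cell markers stayed under 3 CPM except for T cell markers in K562/IM, which reached 23.5. Granulocyte markers summed to at most 5.4 CPM. Monocyte markers lay at 75.4 to 171 CPM, nearly all of it LYZ, and markers of non-blood tissue at 476 to 909, led by KRT8. Of the 8 non-blood markers, 1 stayed under 1 CPM in K562/IM and 5 did in each other group. Their part in the results was not tested. The labels name the libraries of K562/IM+L G2 and the figures of the study name that group G6. ABCB1, the drug efflux pump, was at 21.9 to 25.9 CPM in K562/IM and at 0.488 to 1.06 in those 3 libraries, below the 1.68 to 1.86 of K562. They are therefore called the labelled K562/IM+L libraries, and every direction drawn from them rests on that label.

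Most members were abundant in all groups. In every one of the 12 libraries 87 of the 98 were over 10 CPM and 38 were over 100. The isoforms that other tissues use were the exception. COX4I2 and COX6A2, the isoforms of lung and of heart and muscle, had no count in any library, where the limit that a count of 0 allows (3 counts) was 0.028 to 0.0419 CPM. COX7A1, COX7B2, COX8C, ATP5MGL and NDUFA4L2 also stayed under 1 CPM throughout. Per kilobase of transcript, the highest mean levels in K562 were those of UQCRH, the hinge protein of complex III, at 1373 CPM per kb, ATP5MF at 1233 and ATP5F1B, the catalytic beta subunit of ATP synthase, at 1061. In complex IV, COX4I1 led with 565 CPM per kb, followed by COX6B1 with 503, and in complex I NDUFS5 led with 676. These lengths are medians over annotated isoforms and can differ from the isoform that K562 uses.

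Together the members took 1.67%, 1.77% and 2.04% of all counts in the K562 libraries and 1.36%, 1.46% and 1.32% in K562+L. The share was 1.34%, 1.38% and 1.32% in K562/IM and 1.78%, 1.81% and 1.5% in the labelled K562/IM+L libraries. All 6 libraries of K562+L and K562/IM lay below all 6 of the other groups. Complex V took the largest share, 0.722% ± 0.0772 (SD, n = 3) in K562, and complex II the smallest, 0.0879% ± 0.00181. Complex IV went from 0.273% ± 0.0374 in K562 to 0.177% ± 0.0158 in K562+L, 0.187% ± 0.00816 in K562/IM and 0.282% ± 0.0408 in the labelled K562/IM+L libraries. Complex II stayed between 0.0794% and 0.0892% in every library. Of the 90 members with a mean over 1 CPM in some group, 58 had their highest mean in K562 and 28 in the labelled K562/IM+L libraries, and 58 had their lowest in K562/IM.

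**Figure D1:**
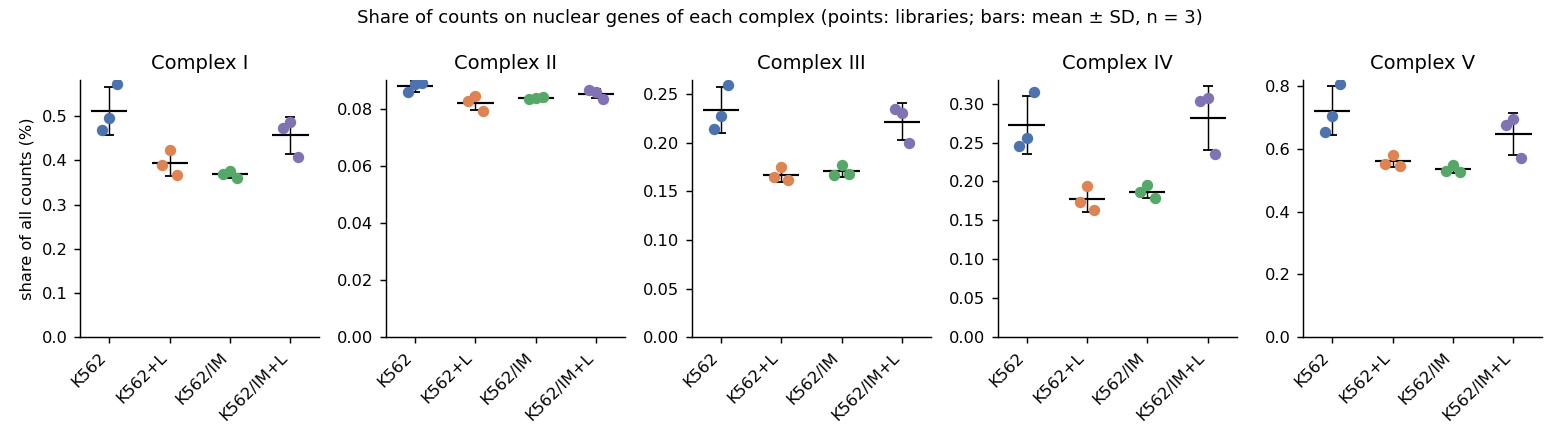
Share of all counts (percent, vertical axis from 0) that fell on the nuclear genes of each complex, with 1 point per library and the mean ± SD of 3 libraries for each group. Complex IV falls from 0.273% in K562 to 0.177% in K562+L and 0.187% in K562/IM, while complex II stays between 0.0794% and 0.0892%.

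Single libraries stood apart in these genes. K562 replicate 3 was the highest of its group in 84 of the 90 members and replicate 1 the lowest in 74, and of the labelled K562/IM+L libraries replicate 3 was the lowest in 80. The median coefficient of variation between replicates was 15.8% in K562 and 16.9% in the labelled K562/IM+L libraries, against 9.46% in K562+L and 5.45% in K562/IM. The other short transcripts of the table were ordered alike. Transcript lengths of the members were short, with a median of 761 nt among those tested in K562+L against K562, where all genes tested had a median of 2508.5 nt. The 1143 other genes with transcripts up to 1000 nt were highest in K562 replicate 3 within K562 and lowest in replicate 3 within the labelled K562/IM+L libraries. Because short transcripts as a class also differed between the groups, each comparison below is given as well with an offset for transcript length. This offset removes each library's trend of level on length and was added after seeing the data.

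The comparison of K562+L with K562 asks what lycorine did in the drug-sensitive line. Of 91 members tested, 52 were lower, 0 were higher and 39 did not pass the test (edgeR's quasi-likelihood test, adjusted p under 0.05), where 19% of all 12927 genes tested were lower and 18.2% higher. Unadjusted, a p under 0.05 for a higher level was reached by 0 members. DESeq2 called 63 members lower and 0 higher, where it called 2819 of all genes lower and 2740 higher. The median log2 fold change of the members was -0.52, beside a median of 0.00 over all genes. Past a log2 fold of 1, 2 of them were lower and 0 higher, where 4.01% and 2.38% of all genes were. The count was 33 without K562+L replicate 1 and 76 without K562 replicate 1. With the offset for transcript length, 23 were lower and 2 higher and the median was -0.13. With it 18.9% of all genes were lower and 19.4% higher.

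Lower members came from 4 of the complexes in numbers, with 24 of 46 in complex I, 6 of 9 in complex III, 10 of 14 tested in complex IV and 11 of 18 tested in complex V, whereas complex II had 1 of 4. Within complex I, 20 of 30 accessory subunits were lower but 1 of the 7 core subunits, which carry the flavin and the iron-sulfur clusters. NDUFA3, a small accessory subunit, read 28.1, 25.5 and 45.2 CPM in K562 and 13.4, 15.1 and 13.4 in K562+L. No treated library reached the lowest control, and the log2 fold change was -1.24 (standard error 0.21, edgeR adjusted p = 0.0037). NDUFAF3, an assembly factor, fell by 0.90 (standard error 0.14, edgeR adjusted p = 0.0028). NDUFS1, the largest core subunit of complex I, read 182, 187 and 173 CPM in K562 and 200, 198 and 215 in K562+L. Its treated libraries all lay above its controls, yet the log2 difference of 0.18 (standard error 0.08) did not pass (edgeR adjusted p = 0.12).

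SDHC, a membrane anchor of complex II, read 169, 165 and 165 CPM in K562 and 122, 129 and 129 in K562+L (log2 fold change -0.39, standard error 0.08, edgeR adjusted p = 0.0062). With the offset it stood at 0.19, computed from a median annotated isoform of 460 nt, and 0 of the 4 members of complex II were called. SDHA, the flavoprotein of that complex, went from 307 ± 27.4 to 321 ± 15.0 CPM (SD, n = 3) with overlapping libraries. In complex III, UQCRH read 732, 764 and 991 CPM in K562 against 465, 505 and 479 in K562+L, a log2 fold change of -0.78 (standard error 0.12, edgeR adjusted p = 0.0027). The groups did not overlap. UQCRQ, another small subunit of complex III, fell by 0.83 (standard error 0.16, edgeR adjusted p = 0.0057).

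Of the 11 subunits of complex IV that most tissues share, 10 were lower. NDUFA4, first assigned to complex I and now counted with complex IV, had the largest fold among them. It read 215, 227 and 287 CPM in K562 and 103, 124 and 118 in K562+L, so that every treated library was far below every control (log2 fold change -1.08, standard error 0.13, edgeR adjusted p = 0.0011). COX6C followed at -0.82 (standard error 0.15, edgeR adjusted p = 0.0052). COX4I1, the largest nuclear subunit of that complex, read 367, 446 and 534 CPM in K562 and 344, 338 and 269 in K562+L. Its call (log2 fold change -0.50, standard error 0.15, edgeR adjusted p = 0.033) was lost in 5 of the 6 fits that left out 1 library, as was that of COX6A1.

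In complex V, 8 of 9 subunits of the stalk and membrane part were lower, and 2 of 5 of the F1 head. ATP5F1E, the epsilon subunit of the head, read 301, 315 and 453 CPM in K562 and 168, 208 and 205 in K562+L, with no overlap (log2 fold change -0.88, standard error 0.17, edgeR adjusted p = 0.0059). ATP5PF, which couples the stalk to the membrane part, fell by 0.83 (standard error 0.11, edgeR adjusted p = 0.0016). The inhibitor ATP5IF1, which blocks the enzyme from running backwards, fell by 0.74 (standard error 0.12, edgeR adjusted p = 0.0029). The 3 genes that encode identical subunits c, ATP5MC1 to ATP5MC3, had log2 differences of -0.41, -0.29 and -0.48, and none passed. ATP5F1B was at 1951 ± 165 CPM in K562 and 1749 ± 53.6 in K562+L (SD, n = 3), a log2 difference of -0.16 (edgeR adjusted p = 0.15).

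The offset for transcript length moved most of these values. NDUFA4 and ATP5F1E kept nearly their size, at -1.03 and -0.79. The offset took their lengths as 2130 and 1878 nt, medians over annotated isoforms. Whether these match the isoforms in K562 was not tested. Still called lower but smaller by over 1.5 times were NDUFA3 at -0.57, NDUFAF3 at -0.52, COX6C at -0.34, ATP5PF at -0.35, UQCRQ at -0.33, UQCRH at -0.28 and ATP5IF1 at -0.23. COX4I1 stood at -0.12 and COX6A1 at 0.09, and neither was called. Of the complex IV members tested, 4 of 14 were then lower, where 18.9% of all genes were.

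**Figure D2:**
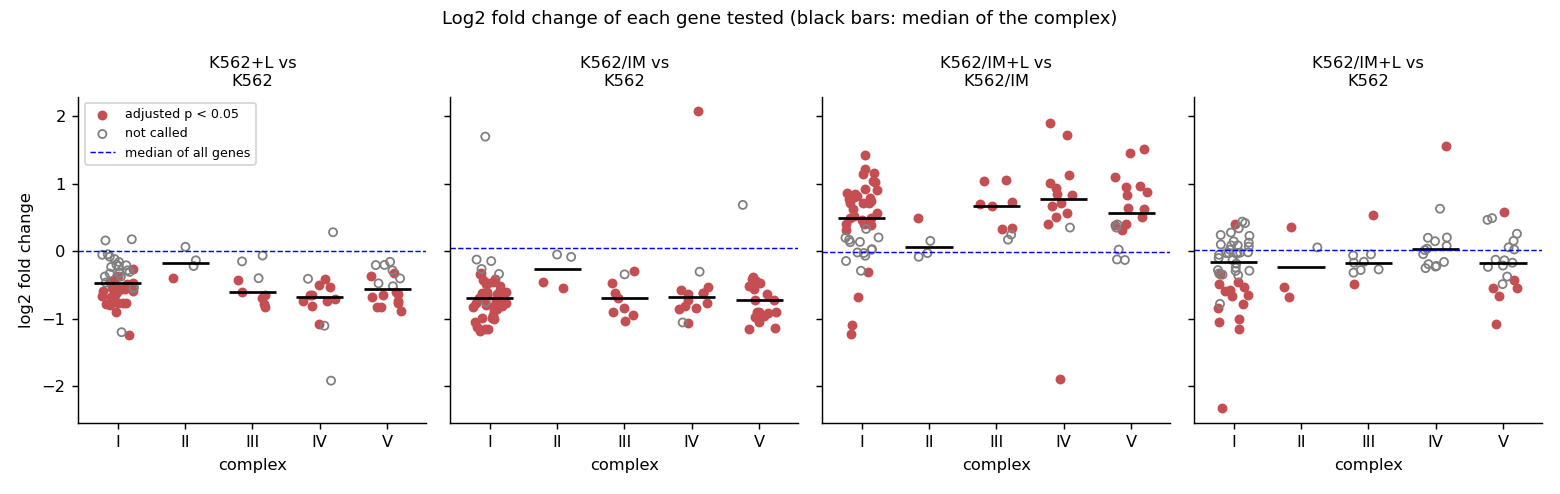
Log2 fold change of each member tested (vertical axis) by complex in the 4 comparisons, filled where edgeR's adjusted p was under 0.05 and open where not, with the median of each complex as a black bar and the median of all genes as a dashed line. The members lie mostly below the line in K562+L and K562/IM against K562 (medians -0.52 and -0.69) and above it in the labelled K562/IM+L libraries against K562/IM (median 0.51).

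The comparison of K562/IM with K562 asks how the resistant line differed before any lycorine. Of 92 members tested, 79 were lower and 1 was higher in K562/IM, where 27.1% of all genes tested were lower and 30.1% higher. The median log2 fold change was -0.69, against 0.04 over all genes, and past a log2 fold of 1, 11 members were lower and 1 higher, against 5.29% and 13.9% of all genes. All 11 shared subunits of complex IV were lower, as were 29 of 30 accessory and 5 of 7 core subunits of complex I, 8 of 9 members of complex III and 18 of 19 tested of complex V. Complex II had 2 of 4. Leaving out any 1 library gave 76 to 84 lower. The offset for transcript length left 59 lower, 3 higher and a median of -0.31, where 30.1% of all genes were lower and 28.9% higher.

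Within complex I the assembly factor NDUFAF4 read 44.6, 49.4 and 50.8 CPM in K562 and 20.6, 23.1 and 19.7 in K562/IM. The groups lay far apart, and the log2 fold change was -1.19 (standard error 0.09, edgeR adjusted p = 3.8e-05). NDUFC1, a small accessory subunit, read 52.1, 56.8 and 60.5 CPM against 23.0, 28.4 and 24.3 (log2 fold change -1.16, standard error 0.10, edgeR adjusted p = 7.3e-05). NDUFAB1, the mitochondrial acyl carrier protein, fell by 0.88 (standard error 0.11, edgeR adjusted p = 0.00035). NDUFS1, at 161, 165 and 171 CPM, was again close to its K562 values and did not pass (log2 difference -0.13, standard error 0.07, edgeR adjusted p = 0.15), and by library totals the difference was 0.06.

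In complex II, SDHB, the iron-sulfur subunit, fell by 0.55 (standard error 0.10, edgeR adjusted p = 0.0021) and SDHD, a membrane anchor, fell by 0.46 (standard error 0.06, edgeR adjusted p = 0.00057), a call lost with the offset for length (-0.12, adjusted p = 0.23). SDHA and SDHC had log2 differences of -0.09 and -0.05 that did not pass. With the offset, 1 of the 4 members of complex II was higher and 1 was lower, where 28.9% and 30.1% of all genes were. Complex III was led by UQCRHL at -1.04 (standard error 0.13, edgeR adjusted p = 0.00043), an intronless copy nearly identical to UQCRH, whose reads may be split between them. UQCRH itself read 427, 443 and 425 CPM in K562/IM, all below its lowest K562 library of 732 (log2 fold change -0.94, standard error 0.12, edgeR adjusted p = 0.00034). UQCRFS1, the Rieske iron-sulfur protein, fell by 0.69 (standard error 0.11, edgeR adjusted p = 0.0011).

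COX4I1 in complex IV read 264, 262 and 261 CPM in K562/IM, a spread of 1.81 (SD, n = 3) around 262, against 449 ± 83.7 in K562, and fell by 0.78 (standard error 0.13, edgeR adjusted p = 0.0014). COX7A2 read 177, 134 and 163 CPM in K562 and 75.3, 80.3 and 71.0 in K562/IM, without overlap (log2 fold change -1.07, standard error 0.11, edgeR adjusted p = 0.00015). COX6B1 fell by 0.85 (standard error 0.16, edgeR adjusted p = 0.0029). The 1 higher member was NDUFA4L2, a hypoxia-induced relative of NDUFA4. It read 0.407, 0.905 and 0.728 CPM in K562/IM against 0.147, 0.131 and 0.206 in K562, a rise of 2.07 on the log2 scale from a very low level (standard error 0.46, edgeR adjusted p = 0.0057). With counts divided by 4 it was not tested and no member was called higher.

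Complex V fell throughout its parts, in 5 of 5 subunits of the head and 9 of 9 of the stalk and membrane part. ATP5F1E read 160, 180 and 142 CPM in K562/IM, below every K562 library (log2 fold change -1.15, standard error 0.17, edgeR adjusted p = 0.00078), and ATP5MPL, a small membrane subunit, fell by 1.14 (standard error 0.13, edgeR adjusted p = 0.00026). All 3 genes of subunit c were lower, at -0.91 for ATP5MC1, -0.57 for ATP5MC2 and -0.96 for ATP5MC3. With the offset these stood at -0.34, -0.18 and -0.58, and ATP5MC2 was not called (adjusted p = 0.10). Of the large head subunits, ATP5F1A, the alpha subunit, fell by 0.48 (standard error 0.07, edgeR adjusted p = 0.0010) and ATP5F1B, the beta subunit, fell by 0.38 (standard error 0.07, edgeR adjusted p = 0.0032), and the offset left them at -0.45 and -0.30. ATP5IF1 read 200, 208 and 196 CPM in K562/IM and fell by 0.90 (standard error 0.11, edgeR adjusted p = 0.00026), or by 0.36 with the offset.

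Among the other members named for K562/IM, the offset left NDUFAF4 at -1.22, UQCRHL at -1.04, ATP5F1E at -1.07 and UQCRFS1 at -0.83, close to or beyond their values without it. Their median annotated lengths were 2399, 2180, 1878 and 3475 nt, against 604 nt for UQCRH. Whether these lengths match the isoforms in K562 was not tested. The offset made others smaller by 1.5 times or more, and these were NDUFC1 at -0.78, ATP5MPL at -0.73, NDUFAB1 at -0.50, COX7A2 at -0.48, UQCRH at -0.43, COX4I1 at -0.38, SDHB at -0.32 and COX6B1 at -0.30, all still called lower. Of the complex IV members tested, 6 of 14 were then lower, where 30.1% of all genes were.

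The labelled K562/IM+L libraries were compared with K562/IM to ask what lycorine did in the resistant line. Here 62 of 91 members were higher and 5 lower, where 33.2% of all genes tested were higher and 33.6% lower. The median log2 fold change of the members was 0.51, against -0.01 over all genes. By fold, 15 of the 91 members rose by more than 1 on the log2 scale, a share near the 14.7% of all genes. By as much, 3 of the 91 fell, against 13.8% of all genes. In complex IV 12 of 14 tested were higher, in complex III 7 of 9, in complex V 13 of 18, in complex I 29 of 46 and in complex II 1 of 4. The count of higher members was 56 to 74 when 1 library was left out. With the offset for transcript length it was 44, with 22 lower and a median of 0.13, where 34.6% of all genes went each way. Scaling by library totals, which put the median of all genes at -0.19, gave 53 higher and 10 lower. Since K562/IM serves as the control here and as the compared group above, these counts are not independent of those against K562, just as both comparisons with K562 share its 3 libraries.

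Complex I split by role. Of its accessory subunits 23 of 30 were higher and 0 lower, and of its core subunits 6 of 7 were higher. NDUFC1 rose from 25.2 ± 2.81 (SD, n = 3) to 70.1, 75.6 and 54.8 CPM, all above every K562/IM library (log2 fold change 1.43, standard error 0.14, edgeR adjusted p = 7.1e-05). NDUFB11 rose by 1.22 (standard error 0.13, edgeR adjusted p = 0.00014). NDUFS1 went the other way, to 129, 124 and 140 CPM, below every K562/IM library, and its log2 fold change was -0.31 (standard error 0.07, edgeR adjusted p = 0.0066). None of the 8 assembly factors was higher and 2 were lower, NDUFAF4 and NDUFAF6. NDUFAF4 read 10.6, 10.3 and 8.38 CPM, less than in any other group, and its log2 fold change was -1.09 (standard error 0.12, edgeR adjusted p = 0.00015). NDUFAF6 had a log2 fold change of -0.68 (standard error 0.09, edgeR adjusted p = 0.00033).

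SDHA was the 1 called member of complex II, at 294, 278 and 297 CPM in K562/IM and 420, 415 and 358 in the labelled K562/IM+L libraries (log2 fold change 0.48, standard error 0.08, edgeR adjusted p = 0.0012). SDHB and SDHD had log2 differences of -0.08 and -0.03 that did not pass. With the offset for length, 1 of the 4 members of complex II was higher and 3 were lower, with a median of -0.42. Over all genes 34.6% went each way with it. In complex III, UQCRB, a small subunit, read 212, 266 and 207 CPM against 527, 447 and 422, with no overlap and a rise of 1.05 (standard error 0.12, edgeR adjusted p = 0.00022). UQCRH rose by 0.70 (standard error 0.12, edgeR adjusted p = 0.0014), or 0.13 with the offset for length (adjusted p = 0.045).

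The shared subunits of complex IV were higher in 10 of 11 cases. COX4I1 read 549, 544 and 471 CPM, far over the 261 to 264 of K562/IM, a rise of 1.02 (standard error 0.08, edgeR adjusted p = 2.2e-05). COX7A2 rose by 1.12 (standard error 0.14, edgeR adjusted p = 0.00025) to 199, 142 and 145 CPM. COX7A2L, a factor that joins complexes III and IV into supercomplexes, was among the most variable members. It read 73.2, 82.0 and 25.4 CPM in K562/IM and 252, 252 and 84.1 in the labelled K562/IM+L libraries, and its call (log2 fold change 1.73, standard error 0.53, edgeR adjusted p = 0.022) was lost when replicate 1 or 2 of the treated group was left out. The testis isoform COX6B2 rose by 1.90 (standard error 0.33, edgeR adjusted p = 0.0016), from 0.243 to 0.287 CPM to a still low 0.765 to 1.24, and was not called in the fit of all 12 libraries. NDUFA4L2 fell by 1.89 (standard error 0.66, edgeR adjusted p = 0.036), a call lost in 3 of the 6 fits that left out 1 library.

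The inhibitor ATP5IF1 had the largest rise in complex V. It read 200, 208 and 196 CPM in K562/IM and 610, 632 and 461 in the labelled K562/IM+L libraries, with a wide gap between the groups (log2 fold change 1.52, standard error 0.12, edgeR adjusted p = 2.8e-05, and 0.92 with the offset). ATP5F1E rose by 1.45 (standard error 0.18, edgeR adjusted p = 0.00025), to 485, 491 and 317 CPM. The genes of subunit c parted, since ATP5MC2 rose by 1.10 (standard error 0.12, edgeR adjusted p = 0.00012), ATP5MC3 rose by 0.51 (edgeR adjusted p = 0.021) in a call lost in 5 of 6 fits without 1 library, and ATP5MC1 had a log2 difference of -0.13 (edgeR adjusted p = 0.48). ATP5F1B, at 1367, 1424 and 1263 CPM, had a log2 difference of -0.12 (edgeR adjusted p = 0.14). With the offset for length ATP5MC2 stood at 0.64, COX4I1 at 0.56, UQCRB at 0.52 and COX7A2 at 0.48, all still called, while ATP5MC3 at 0.05 was not (adjusted p = 0.60).

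**Figure D3:**
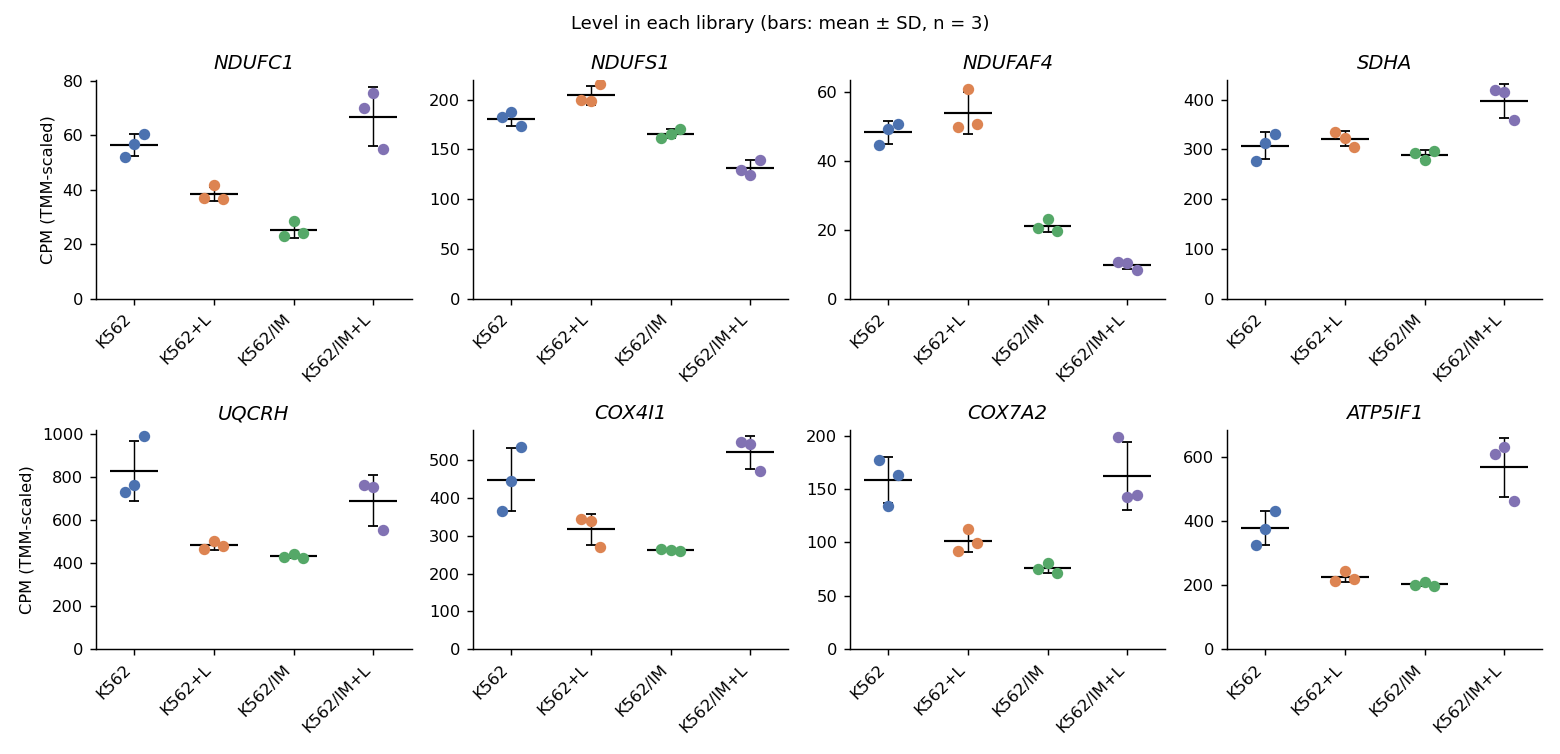
Level in CPM (vertical axis from 0) of 8 members in each of the 12 libraries, with the mean ± SD of 3 libraries for each group. NDUFC1, UQCRH, COX4I1, COX7A2 and ATP5IF1 are low in K562+L and K562/IM and high in the labelled K562/IM+L libraries, whereas NDUFS1 and NDUFAF4 are lowest in those libraries, at 124 to 140 and 8.38 to 10.6 CPM.

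The labelled K562/IM+L libraries were also set against untreated K562. Without the offset for length, most members were not called against that line. Of 92 tested, 5 were higher and 22 lower, where 28.2% of all genes tested were higher and 27.8% lower, and the median log2 fold change was -0.15 against 0.02 over all genes. Past a log2 fold of 1, 1 was higher and 5 were lower, against 14.9% and 8.91% of all genes. With upper-quartile scaling, which put the median of all genes at 0.17, the members' median was 0.00 with 7 higher and 15 lower, so that 31.8% of the calls were higher in place of 18.5%. The higher count was 2 without K562 replicate 2 or without replicate 2 of the treated group, and 3 without replicate 1 of either. With the offset for length, 6 were higher and 43 (46.7%) lower, and the median was -0.23. With it 30.7% of all genes were higher and 31.5% lower. Those 43 included 4 of the 14 complex IV members tested. Without the offset, none of the 11 shared subunits of complex IV was called (edgeR), with log2 differences between -0.25 and 0.20. Of these, 0 reached an unadjusted p under 0.05. COX4I1, for instance, differed by 0.20 (standard error 0.15).

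The assembly factors of complex I were lower in 6 of 8 cases. NDUFAF4 was at 48.2 ± 3.26 CPM in K562 and 9.74 ± 1.18 in the labelled K562/IM+L libraries (SD, n = 3), a log2 fold change of -2.33 (standard error 0.13, edgeR adjusted p = 1.6e-05). NDUFAF8 followed at -1.16 (standard error 0.19, edgeR adjusted p = 0.0017), and NDUFAF1 at -0.65 (standard error 0.12, edgeR adjusted p = 0.0026). Its subunits were lower in 8 of 37 cases, NDUFS1 among them at -0.48 (standard error 0.08, edgeR adjusted p = 0.0020) and NDUFAB1 at -0.79 (standard error 0.17, edgeR adjusted p = 0.0057). In complex II, SDHB fell by 0.68 (standard error 0.14, edgeR adjusted p = 0.0045) while SDHA rose by 0.35 (standard error 0.11, edgeR adjusted p = 0.028), the latter in 2 of 6 fits without 1 library. ATP5MC1 read 70.5, 68.1 and 46.0 CPM against 108, 119 and 160 in K562 (log2 fold change -1.09, standard error 0.21, edgeR adjusted p = 0.0042). ATP5F1B fell by 0.55 (standard error 0.10, edgeR adjusted p = 0.0026). Higher were UQCRB at 0.53 (standard error 0.12, edgeR adjusted p = 0.0067), NDUFB5 at 0.40 (edgeR adjusted p = 0.015, held in 4 of 6 fits without 1 library), the inhibitor ATP5IF1 at 0.57 (standard error 0.16, edgeR adjusted p = 0.018) and COX6B2 at 1.55 (standard error 0.36, edgeR adjusted p = 0.0084). The call of ATP5IF1 held in 2 of 6 fits without 1 library.

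Whether the lycorine effect, with the labels taken as given, differed between the resistant and the sensitive line was tested as an interaction. This was 1 fit of the 12 libraries. In 75 of 92 members the effect was higher in K562/IM than in K562 and in 3 it was lower, where 29.9% of all genes tested were higher and 31.7% lower. The median difference was 1.04 on the log2 scale, against -0.02 over all genes. All 11 shared subunits of complex IV, 28 of 30 accessory subunits of complex I and 8 of 9 members of complex III were among the 75. With the offset for length the counts were 43 and 18 and the median was 0.21, where 28.6% and 32.5% of all genes were called. Leaving out 1 library gave 71 to 78 and 3 to 4. The smallest p-values belonged to ATP5IF1 (difference 2.24, standard error 0.18, edgeR adjusted p = 9.1e-07), NDUFC1 (1.97, standard error 0.18, adjusted p = 2.1e-06) and UQCRB (1.64, standard error 0.17, adjusted p = 8.6e-06). The 3 members on the other side were NDUFAF4 (-1.27, standard error 0.16, edgeR adjusted p = 3.5e-05), NDUFS1 (-0.51, standard error 0.09, adjusted p = 0.00056) and NDUFAF6 (-0.66, standard error 0.16, adjusted p = 0.0033). With the offset these stood at 1.12, 1.11 and 0.64, and at -1.33, -0.57 and -0.89.

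Transcript length moved with these results in genes of every kind. Over all genes with a length, Spearman's rho between log2 fold change and transcript length was 0.34 in K562+L against K562 (12650 genes), 0.26 in K562/IM against K562 and -0.25 in the labelled K562/IM+L libraries against K562/IM. Among the members it was 0.47, 0.29 and -0.22 (91, 92 and 91 genes). These are descriptions across genes that share libraries. Other genes with transcripts up to 700 nt had medians of -0.49, -0.40 and 0.62 in these comparisons, and those over 4000 nt had 0.23, 0.29 and -0.33. Members up to 700 nt (36 genes) had -0.61, -0.71 and 0.59. At 700 to 1000 nt (23 members) the members had -0.56, -0.78 and 0.77, beside -0.34, -0.35 and 0.40 in the other genes. In K562/IM against K562 the members lay below the other genes in each of the 4 classes up to 2500 nt. In the labelled K562/IM+L libraries against K562 the other genes up to 700 nt had a median of 0.23 and the members -0.18. The part of transcript length in these differences was not tested beyond the offset.

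**Figure D4:**
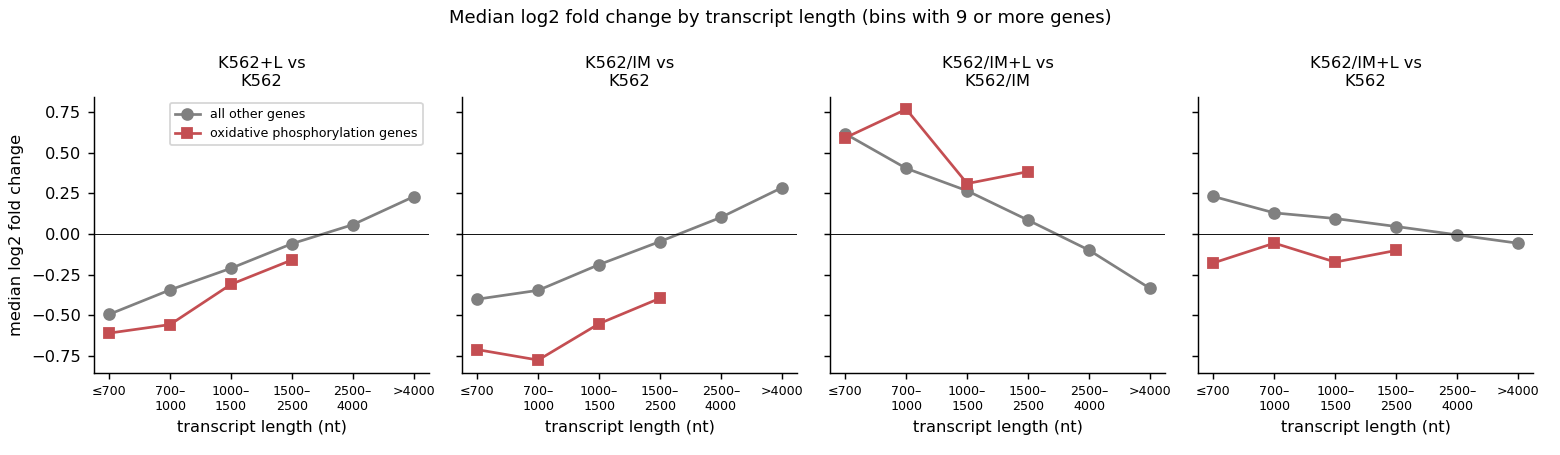
Median log2 fold change (vertical axis) by class of transcript length in nt (horizontal axis) for the oxidative phosphorylation genes and for all other genes in the 4 comparisons, for classes with 9 or more genes. In the other genes the median climbs from -0.49 in the shortest class to 0.23 in the longest in K562+L against K562 and drops from 0.62 to -0.33 in the labelled K562/IM+L libraries against K562/IM.

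A few members are uncertain or spread widely, and these were picked out after their values were seen. NDUFA5 read 402, 187 and 360 CPM in K562 and 127, 136 and 299 in the labelled K562/IM+L libraries, so that its replicates differed by more than its groups and it was called in no comparison. The readthrough symbols NDUFC2-KCTD14 and ATP5MF-PTCD1 share exons with NDUFC2 and ATP5MF, and how shared reads were assigned is not given in the sources used here. NDUFC2-KCTD14 lay at 0 to 3.81 CPM and was called lower in the labelled K562/IM+L libraries than in K562/IM (log2 fold change -1.22, edgeR adjusted p = 0.0071). ATP5MF-PTCD1 was at 0 in 8 libraries and at up to 5.79 CPM in the others.

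Genes that serve these complexes but lie outside the symbols above were followed as lists. Over all genes tested, 19% were lower and 18.2% higher in K562+L, 27.1% and 30.1% in K562/IM, and 33.6% and 33.2% in the labelled K562/IM+L libraries against K562/IM. Of the electron carriers and ubiquinone synthesis genes (18 tested), 2 were lower and 1 higher in K562+L, and their median there was -0.09 on the log2 scale. In K562/IM against K562 9 (50%) were lower and 0 higher (edgeR, with 2 higher at an unadjusted p under 0.05), and in the labelled K562/IM+L libraries against K562/IM 14 (77.8%) were higher and 2 lower. CYCS, cytochrome c, was 1 of the 9 and 1 of the 2. It read 854, 827 and 872 CPM in K562, 791, 912 and 906 in K562+L, 454, 515 and 448 in K562/IM and 260, 252 and 228 in the labelled K562/IM+L libraries; the K562/IM libraries lay below all of K562 and the labelled K562/IM+L libraries below all of K562/IM. Its log2 fold change was -0.85 (standard error 0.07, edgeR adjusted p = 6.7e-05) in K562/IM against K562 and -0.91 (standard error 0.08, adjusted p = 6.2e-05) in the labelled K562/IM+L libraries against K562/IM. Of 42 assembly factors outside the rule, 19 (45.2%) were lower and 5 higher in K562+L, 29 (69.0%) lower and 2 higher in K562/IM, and 19 (45.2%) higher and 7 lower in the labelled K562/IM+L libraries against K562/IM. On the smaller side of these counts, COA7, a heme-binding assembly factor of complex IV, was 1 of the 5 higher in K562+L. It rose by 0.68 (edgeR adjusted p = 0.0010). SCO1, which delivers copper to that complex, was 1 of the 7 lower in the labelled K562/IM+L libraries against K562/IM. It fell by 1.08 (edgeR adjusted p = 2.5e-05).

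The regulators of mitochondrial genes (16 tested) moved as follows. In K562+L 7 (43.8%) were higher and 1 lower, where 18.2% and 19% of all genes were, with a median of 0.28. In the labelled K562/IM+L libraries against K562/IM 8 (50%) were lower and 5 (31.2%) higher, with a median of -0.29, so that the higher share was near the 33.2% of all genes and the lower share stood beside 33.6%. TFAM, the packaging and transcription factor of mitochondrial DNA, read 151, 164 and 140 CPM in K562/IM and 60.6, 59.6 and 67.5 in the labelled K562/IM+L libraries, without overlap (log2 fold change -1.25, standard error 0.09, edgeR adjusted p = 1.8e-05). PPRC1, a coactivator of these genes, had -1.38 (standard error 0.09, edgeR adjusted p = 1.4e-05) there and 0.44 (adjusted p = 0.0075) in K562+L. In K562/IM against K562, 10 (62.5%) were lower and 0 higher (edgeR), where 27.1% and 30.1% of all genes were, and 0 rose at an unadjusted p under 0.05. The factor NRF1 rose by 0.53 (standard error 0.10, edgeR adjusted p = 0.0022) in the labelled K562/IM+L libraries against K562/IM.

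In the citric acid cycle (18 tested), 5 genes were lower and 3 higher in K562+L against K562, where 19% and 18.2% of all genes were. In the labelled K562/IM+L libraries against K562/IM 5 were higher and 4 lower, with a median log2 fold change of 0.04, where 33.2% and 33.6% of all genes were. In K562/IM against K562, 15 (83.3%) were lower, where 27.1% of all genes were, and 1 was higher, where 30.1% were, namely IDH2, the mitochondrial isocitrate dehydrogenase that uses NADP. IDH2 read 64.3, 72.4 and 85.5 CPM in K562, 40.3, 38.8 and 32.3 in K562+L, 108, 111 and 109 in K562/IM and 172, 174 and 152 in the labelled K562/IM+L libraries, with no overlap between any of the groups. IDH3A, of the NAD-dependent enzyme, rose by 0.44 (edgeR adjusted p = 0.0047) in K562+L and fell by 1.19 (edgeR adjusted p = 1.4e-05) in the labelled K562/IM+L libraries against K562/IM. Among 18 genes of mitochondrial carriers, channels and cristae, 6 were lower and 0 higher in K562+L against K562 (1 higher at an unadjusted p under 0.05), and 15 were lower and 0 higher in K562/IM against K562 (edgeR), with 0 higher in the latter at an unadjusted p under 0.05. In the labelled K562/IM+L libraries against K562/IM 8 were higher and 3 lower. UCP2, an uncoupling protein homolog, read 101, 116 and 135 CPM in K562, 42.0, 42.5 and 36.8 in K562+L, 55.7, 56.1 and 61.6 in K562/IM and 252, 258 and 221 in the labelled K562/IM+L libraries. With the labels taken as given, its lycorine effect differed between the lines by 3.61 on the log2 scale (standard error 0.16, edgeR adjusted p = 7.7e-09). OPA1, which shapes the inner membrane, was 1 of the 3 lower in the labelled K562/IM+L libraries against K562/IM, where it fell by 1.31 (edgeR adjusted p = 1.8e-05).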

How the data were processed

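RNA was extracted with TRIzol and libraries were made from polyadenylated RNA. The authors deposited a table of raw, whole-number counts with 19447 gene symbols as rows. Submitters' processing notes name FastQC, STAR, StringTie, DESeq2 and hg38, and the counter's settings, strandedness and annotation are not given in the sources used here. Of 23289 values from 1 to 25 in that table, 67.9% fell on a multiple of 4 or just above it (by 1), whereas 52% of the whole numbers of that range do, so that counting noise may exceed what totals give. Libraries were grouped by the cell line and treatment in their labels.

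The 6 libraries of each pairwise comparison went through filterByExpr at a minimum count of 10, TMM normalization and the quasi-likelihood test of edgeR 4.0.16 (R 4.3.3), with Benjamini-Hochberg adjustment over all genes tested, and calls were made at an adjusted p under 0.05. The interaction used all 12 libraries. Lengths were medians over the basic set of protein-coding transcripts of GENCODE release 29 (GRCh38), which matched 19029 symbols and all 98 members. Members, lists, roles and landmarks were chosen with earlier results of these data known. In each complex and comparison the called member with the largest fold in each direction and no overlap of libraries was named (the next one too in complexes I, IV and V), beside fixed landmarks, and in the interaction the 3 smallest p in each direction.

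Alternatives were DESeq2 1.42.0, other scalings and filters, stricter thresholds, all 12 libraries in 1 fit, the replicate number as a block, counts divided by 4 and each library left out. The offset for transcript length was added after seeing the data. For each library it was a lowess trend on log2 length, over all genes with a length, members included. The trend was that of log2 CPM less the gene's mean over the libraries in the fit. In a simulation that changed 200 genes, pairwise fits recovered 196, 196, 195 and 193 of them, in the order of the report, and the interaction 179. False calls were 10, 7, 14 and 7 among 12841, 13308, 13628 and 13212 genes, and 6 among 13676 in the interaction. Genes were drawn independently at 1 fixed dispersion, with log2 changes of 1 or 2 only. It held no smaller changes and no shifts that members share within a library, so it cannot give the power or false calls for those. Correlations of the deviations of same-numbered libraries ran from -0.23 to 0.15, over 0.1 in 2 of 18 pairs, so that replicate numbers did not pair libraries. Chi-square values per degree of freedom between replicates were 8.63 or more, and no library was a copy of another. The labels give no batch, groups of 3 were not tested for outlying libraries, and with 3 libraries a side the smallest exact p is 0.1.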

Additional observations from a re-analysis of the deposited data

Results flagged for a closer look

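The lycorine effect, as labelled, was tested for a difference between the lines with the interaction test of edgeR at an adjusted p under 0.05. It was higher in K562/IM than in K562 in 75 of 92 members and lower in 3. Over all genes tested, 29.9% were higher and 31.7% lower. With the offset for transcript length 43 members were higher and 18 lower, where 28.6% and 32.5% of all genes were. ATP5IF1 had the smallest p, with a difference of 2.24 on the log2 scale: all 3 treated libraries lay below the controls in K562 and above them in K562/IM. NDUFC1 at 1.97 and UQCRB at 1.64 moved in the same directions. NDUFAF4 at -1.27 and NDUFAF6 at -0.66 were called lower in the labelled K562/IM+L libraries against K562/IM and not in K562+L against K562, and NDUFS1 at -0.51 was called lower in the former and had an uncalled difference of 0.18 in K562+L. These 6 differences were past the threshold with DESeq2, with each alternative scaling, with the offset for transcript length and without any 1 of the 12 libraries.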

How the results depend on the processing

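Of the single values recomputed under the alternatives, 1681 kept their direction and side of the threshold, 72 lost their call, 16 gained one and 18 changed sign. A stricter adjusted p of 0.01 gave 30 lower members in K562+L against K562, and 2 higher and 14 lower in the labelled K562/IM+L libraries against K562. The share of all genes called at 0.01 was not computed, so these counts have no background beside them. Requiring a log2 fold over 1 beside an adjusted p under 0.05 gave 2 lower in K562+L, 11 lower in K562/IM, 15 higher and 3 lower in the labelled K562/IM+L libraries against K562/IM, and 1 higher and 5 lower against K562. Shares over all genes at that fold are given with each comparison above. Counts divided by 4 gave 0 higher in K562/IM. Library totals shifted the median of all genes by 0.23 in K562/IM against K562 and gave a member median of -0.49 there, and 10 lower members in the labelled K562/IM+L libraries against K562/IM, and -0.21 was the shift in the interaction. Upper-quartile scaling shifted the interaction by 0.11.

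The offset for transcript length gave, in K562+L, 2 higher, 23 lower and a median of -0.13, in K562/IM 3 higher and a median of -0.31, in the labelled K562/IM+L libraries against K562/IM 22 lower and a median of 0.13, against K562 43 lower, and in the interaction 43 higher and 18 lower. Shares over all genes with it are given with each comparison above, and by construction it removes each library's trend of level on length. It turned SDHC to 0.19, SDHB to 0.0139, SDHD to 0.20 and COX6A1 to 0.0904 in K562+L, SDHC to 0.56 and COX8A to 0.0546 in K562/IM, SDHC to -0.49, COX5A to -0.0280, COX6A1 to -0.0943 and COX7B to -0.17 in the labelled K562/IM+L libraries against K562/IM, and SDHC to -0.0269 against K562. Library totals turned NDUFS1 to 0.0634, SDHA to 0.11 and SDHC to 0.14 in K562/IM, and SDHC to -0.0349 in the labelled K562/IM+L libraries against K562/IM, where upper-quartile scaling turned SDHD to 0.0289. Leaving out each library, SDHA ran from -0.0149 (without K562 replicate 1) to 0.121 in K562+L, and SDHB from -0.147 to 0.0223 (without K562/IM+L replicate 3) against K562/IM. For these changes the cause was not tested.

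Leaving out each library in turn gave 33 to 76 lower and 0 higher members in K562+L (medians -0.60 to -0.40), 76 to 84 lower and 1 to 2 higher in K562/IM (-0.81 to -0.54), 56 to 74 higher and 4 to 5 lower in the labelled K562/IM+L libraries against K562/IM (0.44 to 0.67), 2 to 7 higher and 18 to 22 lower against K562 (-0.25 to -0.03), and 71 to 78 higher and 3 to 4 lower in the interaction. Calls over all genes in the fits without 1 library are not set beside these counts. With the replicate block the counts were 41 lower in K562+L, 1 higher and 80 lower in K562/IM, 65 higher and 4 lower in the labelled K562/IM+L libraries against K562/IM, 2 higher and 14 lower against K562, and 75 higher and 3 lower in the interaction, but the numbers did not pair the libraries. Over all genes the block called 1488 higher and 1638 lower in K562+L, and 3801 and 3337 in K562/IM. For the labelled K562/IM+L libraries it called 4329 and 4539 against K562/IM, and 2912 and 2788 against K562. The interaction had 4014 and 4305. With 3 libraries in a group and counts near multiples of 4, some small differences may have been missed. Others were called, such as NDUFS1 at -0.31 in the labelled K562/IM+L libraries against K562/IM.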
